A study of Mus musculus with 20 samples.

Results

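In embryonic stem (ES) cells, 677 sites held a peak of the mutant transcription factor Sox17EK in both of its libraries and no peak midpoint of Sox2, Sox2KE or wild-type Sox17 within 200 bp. They were 2.85% of the 23796 Sox sites of ES cells and 10.0% of the 6761 sites bound in both Sox17EK libraries. The members were chosen by peak positions and peak scores of the 8 ES Sox libraries. The strongest peaks of each library, as many from each as the shortest list (Sox17 library B) holds, were ranked by the score in the fifth column of the deposited lists and pooled. Their midpoints were chained while neighbours lay within 200 bp. Each site is the median midpoint of its chain, and a library bound a site when any peak of its whole list had its midpoint within 200 bp. The presence of Sox17EK and the absence of the other 6 Sox libraries are therefore set by this choice and are given below as description. The number of such sites was 1564 when Sox17EK library A was left out and 1043 when Sox2 library A was left out.

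Sox2 and Sox17 are HMG-box transcription factors that bind closely related DNA sequences, often beside the POU factor Oct4. Sox2 and Oct4 together bind composite Sox-Oct elements in the regulatory regions of pluripotent cells, whereas Sox17 acts in primitive endoderm, an early extraembryonic lineage. A single residue of the HMG box at the Oct4 contact surface is lysine in Sox2 and glutamate in Sox17. Sox2KE and Sox17EK exchange that residue, so Sox2 and Sox17EK carry the lysine, and Sox2KE and Sox17 carry the glutamate. Wild-type Sox17 is known to favour a Sox-Oct element with compressed spacing, while Sox2 and Sox17EK favour the canonical spacing.

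The study sequenced chromatin immunoprecipitated from KH2 mouse ES cells, a line with a doxycycline-inducible transgene, that expressed 1 V5-tagged Sox protein each after doxycycline at 1 µg/ml in medium with LIF. Sox peaks came from cells with Sox17EK, Sox2KE, Sox17 or Sox2, with 2 libraries each, and Oct4 peaks came from the Sox17EK line, the Sox2KE line and the Sox2 line with 2 libraries each and from the Sox17 line with 1. F9 mouse embryonal carcinoma cells gave 1 Oct4 and 1 Sox17 library after 1 µM retinoic acid (F9+RA), which drives them towards primitive endoderm, and 1 Oct4 library without it. Of 20 samples, 18 had a peak list and 2 mock libraries were not analysed here. ES cells also make their own Sox2 and Oct4, and nothing in the labels says that libraries A and B were separate cultures. The p-values measure a spread between libraries that also holds differences between lines, and the spread within a line may be technical. The Sox17EK, Sox2KE and Sox2 libraries name the V5 antibody alone, while the Sox17 ES libraries name Sox17 and V5. The Oct4 libraries of ES cells name Oct4 and V5, so peaks of Oct4 and of the tagged Sox protein cannot be told apart in them, whereas the F9 libraries name 1 antibody each.

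The lists differed in length, and read depth is unknown. The lists held 28601 and 36700 peaks for Sox17EK, 33123 and 71693 for Sox2KE, 10301 for Sox17 library A and 32226 and 23924 for Sox2. Sox17 library B had the shortest list of all. The short Sox17 lists set how often a site can count as free of Sox17. The 7 Oct4 lists of ES cells held 32848 to 68294 peaks and the F9 lists 39768 to 84196, so the 32848 strongest peaks of each were used for every share below. No genome or annotation of build mm9 was used, so sites are given by position, without gene names or sequence.

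The Sox17EK peaks at the members had median ranks of 4877 of 28601 in A and 4184 of 36700 in B. At the 6084 other sites of both Sox17EK libraries the median ranks were 3764.5 and 3964. The choice of sites asked for a place among the pooled strongest peaks of at least 1 library. In library A the members' scores ran from 50.56 to 1641.99 with a median of 227, against a median of 282 at the other sites. In library B they ran from 50.61 to 729.06 with a median of 152, against 156 at the other sites. The members' peaks had median widths of 508 bp in A and 370 bp in B, against 590 and 397 bp at the other sites. Of the members, 248 ranked among the pooled strongest peaks of both libraries, 187 of A only and 242 of B only. Midpoints in A and B lay a median of 48 bp apart. The choice of sites bounds this distance, since both midpoints had to lie within 200 bp of the site. The ranks were nearly unrelated (Spearman's rho 0.0674 over the 677 sites, a description, since the sites were chosen through both ranks).

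**Figure D1:**
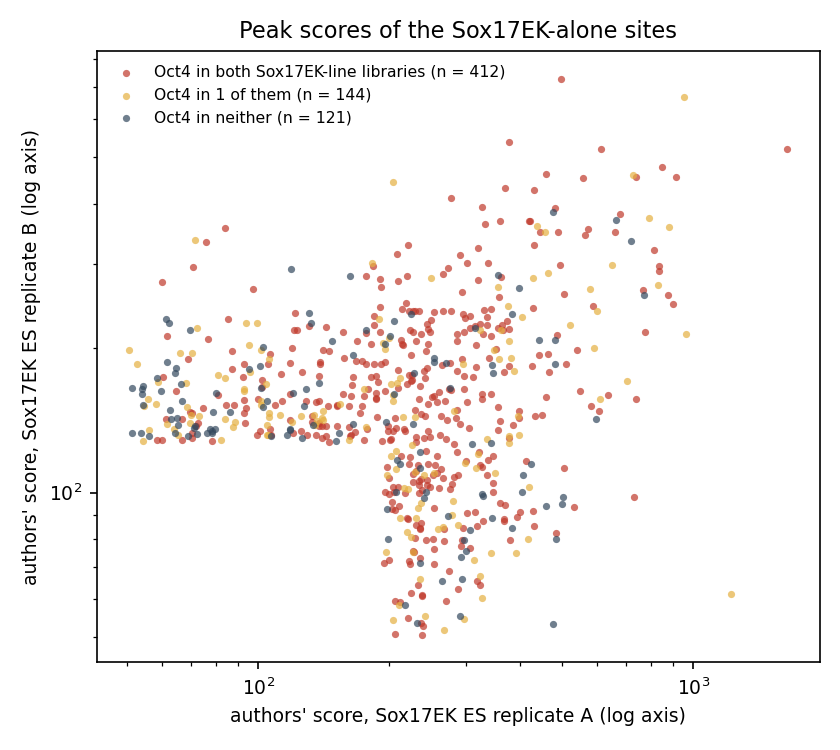
Authors' peak score of each of the 677 Sox17EK-alone sites in Sox17EK library A (horizontal, log axis) and library B (vertical, log axis), coloured by whether both Oct4 libraries of the Sox17EK line (412 sites), 1 of them (144) or neither (121) had a peak. The empty lower left corner comes from the choice of sites, which asked for a place among the pooled strongest peaks of at least 1 library. Sites with a peak in neither Oct4 library of the Sox17EK line lie across the range of scores.

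The members with the best mean rank in the Sox17EK libraries show how varied the surroundings were. Scores given for single sites come from the whole lists. The top site, chr12:111424568-111425189 (mm9), had Sox17EK scores of 1641.99 in A and 519.39 in B. Its Oct4 scores were 3100 and 1519.96 in the Sox17EK line, against 172.15 in the Sox17 line and 172.29 and 51.65 in the Sox2 line, with no peak in the Sox2KE line. F9+RA Oct4 reached 139.46 there and F9 Oct4 179.34. This region led in both rankings, that of Sox17EK and that of Oct4 in the Sox17EK line.

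The next site, chr12:111709484-111710200, had Sox17EK scores of 952.78 and 666.64 and lay on the same chromosome. It met the rule only because midpoints differed: peak intervals of 4 other Sox libraries covered it, and the nearest of their midpoints was 355.5 bp away. Oct4 peaks were listed there in library B of the Sox17EK line (1062.82) and for the Sox17 line (577.98). A region such as this one is free of other Sox midpoints, not of other Sox signal.

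At chr14:63691924-63692658 the Sox17EK scores were 913.45 and 454.75, and Oct4 scored 1462.95 and 593.77 in the Sox17EK line against 182.95 and 59.89 in the Sox2 line. At chr1:194672959-194673893 Sox17EK scored 848.98 and 476.62, and Oct4 scored 1419.2 and 412.94 in the Sox17EK line, 107.44 in the Sox17 line and 78.71 and 59.54 in the Sox2 line. Both sites lay over 1000 bp from any other Sox midpoint and had no Oct4 peak in the Sox2KE line.

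At chr14:58720035-58720851 Sox17EK scored 738.56 and 454.88. Oct4 scored 2986.81 and 1041.58 there in the Sox17EK line, 485.8 in the Sox17 line and 567.56 and 111.85 in the Sox2 line, and its score was 489.22 in F9+RA and 1209.9 in untreated F9 cells. The last of the 6, chr7:129621275-129622280, had Sox17EK scores of 726.57 and 458.22 and an F9+RA Oct4 score of 937.08, with no F9 Oct4 peak. Oct4 scored 3100 there in library A of the Sox17EK line but had no midpoint within 200 bp in library B of that line. It scored 650.18 in the Sox17 line, 505.82 in library A of the Sox2 line and 55.52 in library B of the Sox2KE line. In 5 of the 6 regions the highest Oct4 score of ES cells was in library A of the Sox17EK line, and in the other, chr12:111709484-111710200, it was in library B of that line. Scores of different libraries depend on their depth, so this order is a description.

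Most of these sites had a peak in the Oct4 libraries of the line that made Sox17EK. The Oct4 libraries of ES cells name Oct4 and V5. Here and below, an Oct4 peak of ES cells therefore cannot be told apart from a peak of the tagged Sox protein. Of the 677 members, 466 had an Oct4 peak within 200 bp in library A of the Sox17EK line, which is 68.8% (95% interval 65.2 to 72.3), and 502 in library B, which is 74.2% (70.7 to 77.4). Over all 23796 Sox sites the same shares were 43% in A and 44.8% in B. Intervals here and below are exact Clopper-Pearson intervals and cover counting error only. When member positions were moved by 10 kb to either side, 0.960 to 1.40% had a peak, depending on the ES library.

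In the lines with wild-type Sox proteins fewer members carried Oct4. In the Sox17 line 337 members did, 49.8% (45.9 to 53.6), against 47.2% of all Sox sites. In the Sox2 line 246 members did in library A, 36.3% (32.7 to 40.1), against 49.9% of all Sox sites. Library B of the Sox2 line gave 221 members, 32.6% (29.1 to 36.3), against 50.4%. At this list length the Sox17 line was near the share over all Sox sites, and the Sox2 line was below it. With whole Oct4 lists, library A of the Sox2 line turned to the other side, at 62.2% of members against 57.7% of all Sox sites.

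In the Sox2KE line few members carried Oct4. Each of its libraries had a peak at 34 of 677, or 5.02% (3.50 to 6.95), against 48.9% of all Sox sites in A and 46.9% in B. The whole list of library A had a peak at 86 members (12.7%), against 55.9% of all Sox sites. With lists of equal length the lines stood in the order Sox17EK, Sox17, Sox2 and Sox2KE without overlap between their libraries, although the Sox17 line had a single library. With whole lists the Sox17EK line was highest, at 73.4 and 77.5%, and the Sox2KE line lowest, at 12.7 and 5.02%. The Sox2 line, at 62.2 and 32.6%, then lay on both sides of the Sox17 line, at 51.8%, so the order of those lines rests on the list length.

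**Figure D2:**
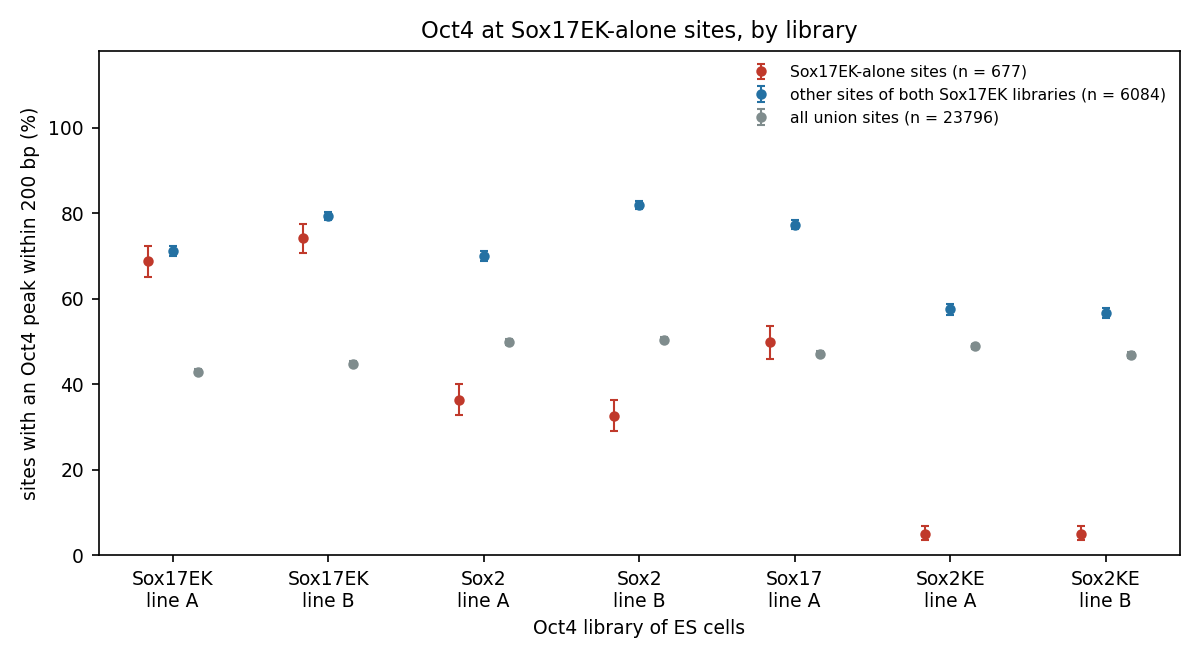
Share of sites with an Oct4 peak within 200 bp (vertical, %) in each of the 7 Oct4 libraries of ES cells, for Sox17EK-alone sites, the other sites of both Sox17EK libraries and all Sox sites, with exact 95% intervals. The Sox17EK-alone sites sit at 68.8 and 74.2% in the Sox17EK line and at 5.02% in both Sox2KE-line libraries, while the other Sox17EK sites stay between 56.7 and 81.9%.

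The Oct4 share of the members averaged 71.5% ± 3.76 (SD, n = 2 libraries) in the Sox17EK line and 25.8% ± 20.0 (n = 5) in the other lines. The difference of 45.7 percentage points had a two-sided exact permutation p of 0.0952, with 0.0476 the smallest that 2 against 5 libraries allow, and 0.190 after Benjamini-Hochberg adjustment over 4 tests. It did not pass the threshold of 0.05. The members were selected on a V5 peak in the Sox17EK line and none in the other lines, and the Oct4 libraries name V5 too, so the share of that selection in the difference cannot be told apart. The difference was 54.2 points over the 554 members that no peak interval of another Sox library covered, and 22.9 points when Sox17EK library A was left out of the choice of sites. It was 28.4 points when Sox presence was asked among the pooled strongest peaks, and 16.2 points when the Oct4 lists were cut to the length of the shortest Sox list.

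Set against the other 6084 sites of both Sox17EK libraries, the members had Oct4 almost as often in the Sox17EK line and less often in every other line. In the Sox17EK line the shares were 68.8 and 74.2% at members, against 71.2 and 79.4% at the other sites. In the Sox17 line they were 49.8% at members, against 77.3%. In the Sox2 line they were 36.3 and 32.6% at members, against 69.9 and 81.9%, and in the Sox2KE line 5.02 and 5.02% at members, against 57.5 and 56.7%. Over the 7 libraries the mean was 38.8% ± 27.7 (SD) at members and 70.6% ± 10.1 at the other sites.

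The mean difference was -31.7 points (SD of the 7 differences 21.3), and the share was lower at members in 7 of 7 libraries. The two-sided exact sign-flip permutation test gave p = 0.0156, the smallest value 7 libraries allow, and 0.0625 after adjustment over the 4 tests. Each library was flipped on its own, so libraries of the same line counted as independent, although the 7 came from 4 lines. The other tests also took libraries as their units. Most of the difference came from the other lines: it was -2.37 and -5.22 points in the Sox17EK line, -27.5 in the Sox17 line, -33.6 and -49.2 in the Sox2 line and -52.5 and -51.7 in the Sox2KE line. The other sites carry a Sox peak of at least 1 further library by construction, and what that adds to the difference was not tested. The difference was -16.9 points when Sox presence was asked among the pooled strongest peaks.

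Sites of wild-type Sox17 alone, picked in the same way (447 sites), differed from the members in which line held Oct4. In the Sox17 line Oct4 was present at 49.8% of members, against 70.9% of Sox17-alone sites. In the Sox17EK line members had 68.8 and 74.2% against 10.3 and 11.6% at Sox17-alone sites, and in the Sox2 line 36.3 and 32.6% against 8.72 and 8.95%. The Sox17 line's share at members was near its 47.2% of all Sox sites. The Sox17EK line's shares at Sox17-alone sites were below its 43 and 44.8% of all Sox sites. Each class was chosen by Sox peaks of its own line, and what that adds was not tested. Across the 7 libraries members averaged 38.8% ± 27.7 and Sox17-alone sites 18.7% ± 23.1 (SD), a difference of 20.2 points that was positive in 4 libraries and negative in 3, with a two-sided exact sign-flip permutation p of 0.188 (adjusted 0.25). Without Sox17EK library A, the choice of sites asked for a Sox17EK peak in library B only. The difference was then -1.20 points, so its direction depended on the choice of sites. With the Oct4 lists cut to the length of the shortest Sox list it was 1.27 points.

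Sites of Sox2KE alone (672) carried Oct4 mainly in the Sox2KE line, where members had 5.02 and 5.02% and Sox2KE-alone sites 70.2 and 58.3%. In the Sox17EK line members had 68.8 and 74.2%, against 10.7 and 7.89% at Sox2KE-alone sites. In the Sox17 line the shares were 49.8% at members and 10.4% at Sox2KE-alone sites, and in the Sox2 line 36.3 and 32.6% against 16.7 and 12.4%. The mean difference over the 7 libraries was 12.2 points (members 38.8% ± 27.7, Sox2KE-alone sites 26.7% ± 26.1, SD). It was positive in 5 libraries and negative in 2, its two-sided exact sign-flip permutation p was 0.531 (adjusted 0.531), and it was -9.34 points without Sox17EK library A in the choice of sites. With the Oct4 lists cut to the length of the shortest Sox list it was 0.458 points.

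The 956 sites of the lysine proteins only, bound by Sox2 and Sox17EK in both libraries and by neither glutamate protein, are the class nearest to the members in residue. Oct4 in the Sox17EK line was present at 68.8 and 74.2% of members and at 74.4 and 84.1% of lysine-only sites. In the Sox2 line it was present at 36.3 and 32.6% of members and at 78.9 and 90.6% of lysine-only sites, which hold a Sox2 peak by choice. In each library of the Sox2KE line it was present at 34 of 677 members and at 201 of 956 lysine-only sites. Only 30 sites belonged to Sox17EK and Sox17 alone, and 39 to Sox17EK and Sox2KE alone.

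Member by member, the Oct4 libraries fell into a few combinations of lines. An Oct4 peak in at least 1 library of the line was counted as present. The most common combination was the Sox17EK, Sox2 and Sox17 lines together without Sox2KE, at 176 members (26.0%) against 1175 of the other Sox17EK sites (19.3%). Oct4 in the Sox17EK line alone followed with 158 members (23.3%), against 95 other sites (1.56%). The Sox17EK and Sox17 lines held 103 members (15.2%) against 105 other sites (1.73%), and the Sox17EK and Sox2 lines 83 members (12.3%) against 360 (5.92%). All 4 lines had Oct4 at 25 members (3.69%), against 2945 other sites (48.4%). No line had it at 67 members (9.90%), against 106 other sites (1.74%). Combinations were counted in these classes only, not over all Sox sites. By construction the members lack a Sox peak of another line and the other sites hold one. What this adds to the contrasts was not tested.

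**Figure D3:**
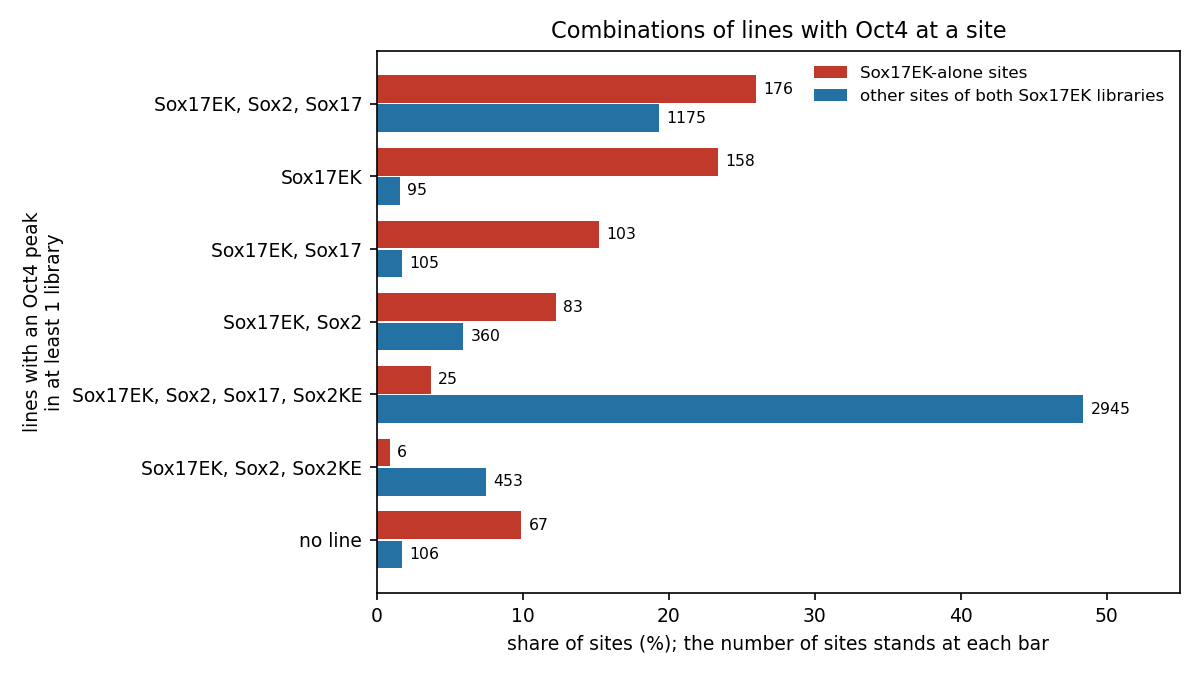
Share of sites (horizontal, %) with each combination of ES lines that had an Oct4 peak in at least 1 library, for Sox17EK-alone sites and the other sites of both Sox17EK libraries, with the number of sites at each bar. Oct4 in the Sox17EK line alone takes 23.3% of Sox17EK-alone sites and 1.56% of the others, and Oct4 in all 4 lines takes 3.69% and 48.4%.

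Both Oct4 libraries of the Sox17EK line agreed on a peak at 412 members (60.9%), close to the 3900 of the other Sox17EK sites (64.1%). At 111 members (16.4%), against 44 other sites (0.723%), those 2 libraries were the only ones of the 7 with a peak. The other sites hold a Sox peak of another line by construction, and what that adds to this contrast was not tested. Of the 412, Oct4 was also present at 245 in the Sox17 line (59.5%), at 186 and 148 in the Sox2 line (45.1 and 35.9%) and at 10 and 11 in the Sox2KE line (2.43 and 2.67%). Of the 3900 other sites the shares were 86.2% in the Sox17 line, 85.1 and 86.4% in the Sox2 line and 59.4 and 58.2% in the Sox2KE line. Neither Sox17EK-line library had Oct4 at 121 members (17.9%), against 823 other sites (13.5%).

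Where Oct4 was present, its peaks ranked higher in the Sox17EK line than elsewhere. The median rank among the 32848 strongest peaks was 9499.5 in library A and 10503.5 in library B of the Sox17EK line, against 15728 in the Sox17 line, 22124 and 19820 in the Sox2 line and 23268 and 18653.5 in the Sox2KE line. In the Sox17EK line 41.4 and 40.8% of these peaks were among the strongest 25% of the peaks used. The share was 17.5% in the Sox17 line and 10.2 and 10.9% in the Sox2 line. The Sox2KE line had 17.6 and 20.6%, over 34 peaks in each library. In F9 and F9+RA cells the shares were 35.5 and 25.3%, with median ranks of 13099.5 and 14863. At the other Sox17EK sites the Oct4 peaks of the Sox17EK line were stronger still, with median ranks of 4932.5 and 4846. The median distance between the site and the Oct4 midpoint was 42 to 67.5 bp in the 7 libraries.

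The strongest Oct4 peaks of the Sox17EK line at members included chr12:64584940-64585509, the site farthest from any other Sox midpoint among those named (318710 bp). Oct4 scored 2260.45 and 1505.3 there in the Sox17EK line, 356 in the Sox17 line and 137.45 in library A of the Sox2 line. In F9+RA cells it scored 759.07 and in F9 cells 1577.66, and Sox17EK scored 836.37 and 296.06. At chr10:67108681-67109711 Oct4 scored 2543.5 and 1073.56 in the Sox17EK line, against 78.47 in the Sox17 line and 253.64 in library A of the Sox2 line. At chr1:65846359-65847244 the scores were 1835.41 and 1001.11 in the Sox17EK line, against 401.04 in the Sox17 line and 223.04 in library A of the Sox2 line, and 1 other Sox interval covered the site.

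Members with a peak in both Oct4 libraries of the Sox17EK line had somewhat stronger Sox17EK peaks. The sites were chosen through these Sox17EK peaks, and the Oct4 libraries of ES cells name V5 too. What this adds to the contrasts by strength was not tested. The 412 with Oct4 in both Sox17EK-line libraries had median Sox17EK scores of 237 in A and 156 in B, against 177 and 142 at the 121 with Oct4 in neither. Members were also split by their mean Sox17EK rank. Oct4 of library A was present at 78.8% of the 226 strongest, 70.7% of the 225 in the middle and 57.1% of the 226 weakest, against 71.6, 74.4 and 71.0% of the other Sox17EK sites in the same rank ranges. In library B the shares were 82.3, 79.6 and 60.6% at members, against 81.9, 82.1 and 75.4%. In the Sox17 line they were 64.6, 44.9 and 39.8% at members, against 83.1, 74.0 and 72.0%. The Sox2KE line stayed between 4 and 6.19% of members at every strength, whereas the other Sox17EK sites of the strongest rank range had 59.0 and 58.6% there.

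Only 6 members (0.886%) had neither an Oct4 midpoint within 200 bp nor an overlapping Oct4 interval in any whole ES Oct4 list, against 0 of 6084 other Sox17EK sites and 1503 of all Sox sites (6.32%). All 4 named from these 6 had low Sox17EK scores in library A, from 61.48 to 77.44, and 135.89 to 229.87 in B. At chr11:79792207-79793025 the scores were 69.83 and 218.36, and 2 intervals of other Sox libraries covered the site. At chr2:98506307-98507583 they were 61.48 and 229.87, and Sox17 of F9+RA cells scored 365.88. The other 2 lay on chromosome 18.

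The distance to the nearest other Sox peak separated the members. The nearest midpoint of another ES Sox library lay a median of 4192 bp away (quartiles 884 and 13881 bp). It was within 1000 bp at 179 members, 1 to 10 kb away at 283 and farther at 215. Peak intervals of other Sox libraries covered 123 members (18.2%), most often those of Sox2KE library B (91), Sox2 library A (59), Sox2 library B (47) and Sox17 library A (41). The other 554 members (81.8%) lay under none.

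Among members, Oct4 of the Sox17EK line was less frequent within 1000 bp of another Sox midpoint than farther away. The 6084 other Sox17EK sites, with another Sox midpoint within 200 bp by construction, had it at 71.2 and 79.4%. At the 179 members within 1000 bp it was present at 38.5 and 46.9%. At 1 to 10 kb it was present at 77.4 and 83.7% of 283, and beyond 10 kb at 82.8 and 84.2% of 215. The Sox17 line went the same way, with 38.5, 53.4 and 54.4%. The Sox2KE line went the opposite way, with 14.0 and 12.3% within 1000 bp, 1.77 and 2.12% at 1 to 10 kb and 1.86 and 2.79% beyond. In the Sox2 line library A had 26.8, 40.6 and 38.6% and library B 36.3, 33.9 and 27.9%, so its libraries did not share a direction. These bins are a description over sites, without a test.

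**Figure D4:**
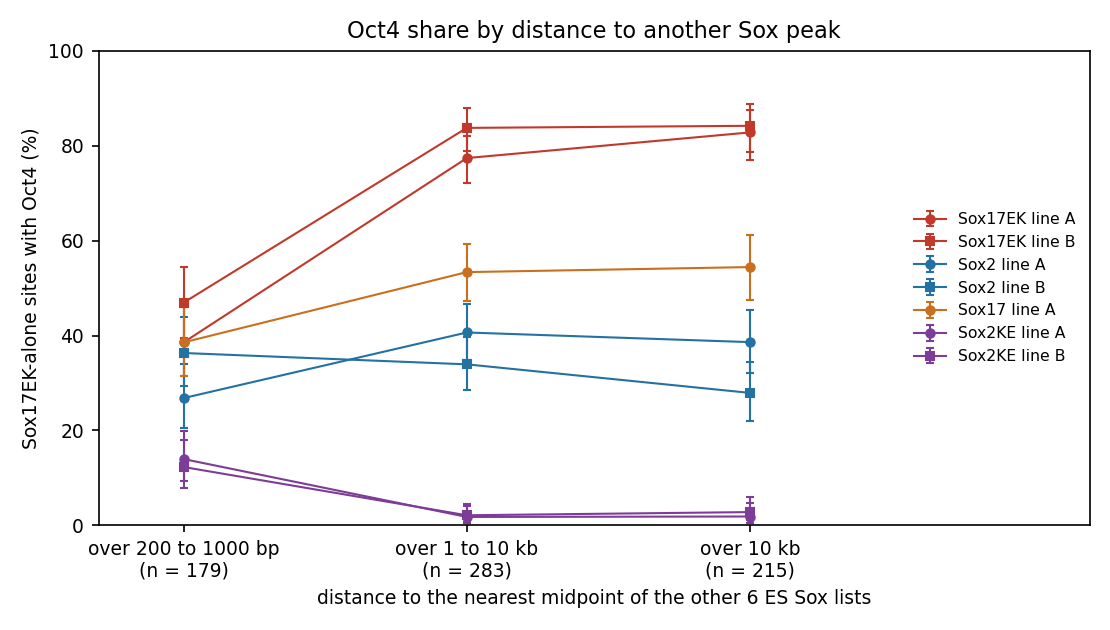
Share of Sox17EK-alone sites with an Oct4 peak (vertical, %) in the 7 Oct4 libraries of ES cells, in 3 bins of distance to the nearest midpoint of the other 6 ES Sox lists (179, 283 and 215 sites), with exact 95% intervals. The Sox17EK line climbs to 82.8 and 84.2% beyond 10 kb while the Sox2KE line is at 1.86 and 2.79% there.

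The number of Sox17EK-alone sites was 763 with a matching distance of 100 bp, 621 with 400 bp and 578 by overlap of intervals. Some sites lay close to the 200 bp limit. Of the members, 30 (4.43%) had another Sox midpoint in the first 50 bp past it, and 62 of the other Sox17EK sites (1.02%) had their nearest in the last 50 bp before it. Just inside, chr7:26454142-26455055 lay 202 bp from a Sox2 midpoint and had Sox17EK scores of 205.66 and 100.28, with Oct4 at 2222.61 and 641.43 in the Sox17EK line, against 855.64 in the Sox17 line. Also inside, chr13:40825931-40826823 lay 203 bp from a Sox17 midpoint, had Sox17EK scores of 207.5 and 100.34, and carried Oct4 in the Sox2KE line alone (826.9 and 319.04). Just outside, chr2:131708173-131709680 had Sox17EK scores of 586.08 and 174.77 and a Sox2 midpoint 200 bp away with a score of 97.78. Also outside, chr16:44716598-44717217 had Sox17EK scores of 76.98 and 154.92 and a Sox2 midpoint with 61.27.

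In F9 cells, whose labels name no tagged Sox protein, many members also held Oct4. Each F9 library is single, so the shares have counting intervals and no test. In F9+RA cells 194 members had an Oct4 peak, 28.7% (25.3 to 32.2), against 35.4% of all Sox sites and 57.7% of the other Sox17EK sites. In untreated F9 cells 256 members had one, 37.8% (34.1 to 41.6), against 35.8% of all Sox sites and 60.4% of the other Sox17EK sites. At this list length the F9+RA share of the members was below that of all Sox sites, and the F9 share was near it. With whole lists the shares were 48.0% of members against 47.0% of all Sox sites in F9+RA cells, and 54.5% against 44.5% in F9 cells. At 135 members Oct4 was present in both, at 59 in F9+RA cells alone, at 121 in F9 cells alone and at 362 in neither.

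The single-protein classes differed in the order of the F9 conditions. Members had Oct4 at 28.7% in F9+RA and 37.8% in F9 cells. Sox17-alone sites had 36.7% in F9+RA and 15.9% in F9 cells. Sox2KE-alone sites had 16.2% and 10.4%, and Sox2-alone sites 9.60% and 13.2%. Whether this differs beyond replicate spread cannot be tested with 1 library each. Without Sox17EK library A in the choice of sites, the members' shares were 15.5% in F9+RA and 19.1% in F9 cells.

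Endogenous Sox17 of F9+RA cells was rare at the members. It was present at 24, or 3.55% (2.28 to 5.23), against 17.1% of all Sox sites and 17.4% of the other Sox17EK sites. The share was 35.8% at Sox17-alone sites and 14.0% at Sox2KE-alone sites. It was 2.93% at lysine-only sites and 2.00% at Sox2-alone sites, so the members lay near the classes without a glutamate protein. These classes were chosen by Sox17 peaks of ES cells, and that selection and the share cannot be told apart. The members' share was 5.81% without Sox2KE library B in the choice of sites and 5.38% without Sox17 library A. Oct4 of the same F9+RA cells was present at 12 of the 24.

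**Figure D5:**
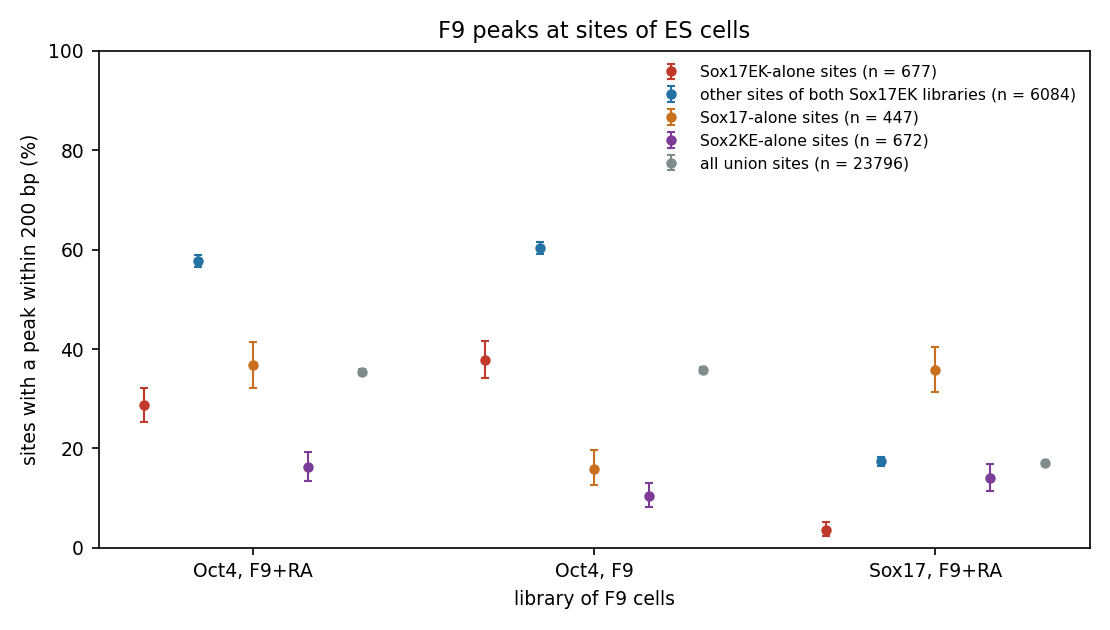
Share of sites with a peak within 200 bp (vertical, %) in the F9+RA Oct4, F9 Oct4 and F9+RA Sox17 libraries, for Sox17EK-alone sites, the other Sox17EK sites, Sox17-alone sites, Sox2KE-alone sites and all Sox sites, with exact 95% intervals. Sox17EK-alone sites have Sox17 in F9+RA cells at 3.55%, the lowest of the 5 classes shown, against 35.8% at Sox17-alone sites.

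The strongest members with F9+RA Sox17 differed in their Oct4. At chr2:87355781-87356383 Sox17EK scored 680.39 and 381.41, F9+RA Sox17 169.15 and F9+RA Oct4 1236.07, against 227.58 for Oct4 in F9 cells, and all 7 Oct4 libraries of ES cells had a peak. At chr2:152543409-152544118 Sox17EK scored 661.51 and 349.19, F9+RA Sox17 60.34 and F9+RA Oct4 283.89, with no Oct4 peak in the Sox2KE line. At chr12:55173093-55173699 F9+RA Sox17 scored 536.91 and F9+RA Oct4 131.71, while Sox17EK scored 374.75 and 244.92. Oct4 of the Sox17EK line was weak there, at 320.87 and 72.65, and no other ES line had a peak. The second site of chromosome 12 named above also belongs to these, with an F9+RA Sox17 score of 94.28.

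Oct4 in F9 cells varied with the lines that held Oct4 in ES cells. Of the 158 members with Oct4 in the Sox17EK line alone, 26 had it in F9 cells (16.5%), against 24.2% of the other Sox17EK sites with that combination. Of the 103 with Oct4 in the Sox17EK and Sox17 lines, 53 did (51.5%, against 43.8%), and of the 83 with Oct4 in the Sox17EK and Sox2 lines, 32 did (38.6%, against 32.5%). Of the 176 with Oct4 in all 3 of those lines, 107 did (60.8%, against 69.2%), and of the 67 with no Oct4 peak in ES cells at this list length, 4 did (5.97%, against 7.55%). The other Sox17EK sites thus had the same order of combinations in F9 cells. In F9+RA cells the shares were 10.1% for the Sox17EK line alone, 36.9% with the Sox17 line, 14.5% with the Sox2 line, 46.6% with both and 10.4% with none. At the other Sox17EK sites they were 17.9, 33.3, 21.1, 48.3 and 26.4%. Oct4 peak strength was not held equal between these combinations.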

How the data were processed

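ChIP-seq peak lists were analysed for 18 samples. The lists give chromosome, start, end, a MACS peak name and a score in the fifth column. The score was deposited by the authors without a header, and was read here as 10 times −log10 p, as MACS writes it, since no deposited list has a value below 50. Each sample has its own deposited list. The build was mm9, per the submitters' processing notes, and the aligner, settings and control are not stated in the sources used here. Starts are printed 1-based, and regions span the Sox17EK peaks of libraries A and B.

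Midpoints were whole numbers, (start + end) / 2 rounded down. Shares used the 32848 strongest peaks of each Oct4 or F9 list, the length of the shortest ES Oct4 list, so that list length was equal. The 4 tests were exact permutation tests over libraries (SciPy 1.17.1, NumPy 2.4.6, pandas 2.3.3, Python 3.11.15), Benjamini-Hochberg adjusted, and tested on simulated data. No mask of repetitive regions was applied. Single regions were named by rank: the 6 best by Sox17EK, the 6 best by Oct4 in the Sox17EK line, the 4 best without ES Oct4, the 4 best with F9+RA Sox17, and 2 on each side of the 200 bp limit. The members and these rules were chosen with earlier results of these data known. Gene lists and motif searches were not run, since they need a genome of mm9. Alternatives changed the matching distance, the score limit, the list lengths and the libraries used, 1 at a time.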

Additional observations from a re-analysis of the deposited data

Results flagged for a closer look

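The difference in Oct4 share between Sox17EK-alone sites and another class ran in opposite directions in different lines in 7 contrasts between lines (4 against Sox17-alone sites and 3 against Sox2KE-alone sites), with every library of one line on one side and every library of the other line on the other. None of these contrasts was tested, the Sox17 line has 1 library, and the classes were chosen by Sox peaks of these same lines, so that choice and the contrast cannot be told apart.

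Set against Sox17-alone sites, the members were 60.5 points higher in the Sox17EK line and changed by -21.1 points in the Sox17 line, 81.7 points apart. The Sox17EK line and the Sox2KE line, where the difference was -5.04 points, were 65.6 points apart. In the Sox2 line the members were 25.7 points higher, which was 46.8 points from the Sox17 line and 30.7 points from the Sox2KE line.

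Set against Sox2KE-alone sites, the difference was 62.2 points in the Sox17EK line and -59.3 points in the Sox2KE line, 121 points apart. It was 20.0 points in the Sox2 line, 79.2 points from the Sox2KE line, and 39.4 points in the Sox17 line, 98.6 points from the Sox2KE line.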

How the results depend on the processing

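The Oct4 difference between the Sox17EK line and the other lines kept its direction in 25 alternatives (16.2 to 64.0 points, exact permutation p 0.0476 to 0.167, adjusted 0.0952 to 0.333), and so did that from the other Sox17EK sites in 24 (-46.6 to -16.9 points, exact permutation p 0.0156 to 0.141, adjusted 0.0625 to 0.190). With so few libraries the adjusted values could hardly reach 0.05, so they say nothing about stability, and the unadjusted exact permutation p crossed 0.05 in both. With the replicate block the comparison of lines gave 46.9 points (exact permutation p 0.167). The letters A and B do not pair the libraries: deviations of same-lettered libraries correlated at 0.0840, -0.00241 and 0.0221. Fitted without 1 Sox or Oct4 library each, the difference from Sox17-alone sites ran from -1.20 to 27.0 points and that from Sox2KE-alone sites from -9.34 to 25.1 points, reversed without Sox17EK library A. With Oct4 lists as short as the shortest Sox list they were 1.27 and 0.458 points. The number of sites was 1093 when presence was asked among the strongest peaks that were pooled, 1036 with scores of at least 100, and 709 to 1564 without 1 Sox library each, with 1564 without Sox17EK A and 1043 without Sox2 A. The F9 Oct4 share was 29.9% at 100 bp, 44.1% at 400 bp, 47.8% by overlap of intervals, 59.7% with the pooled strongest Sox peaks, 49.5% with scores of at least 100 and 54.5% with whole F9 lists, an alternative chosen after seeing the data. The F9+RA Oct4 share was 33.3% at 400 bp, 33.7% by overlap, 51.3% with the pooled strongest, 40.4% with scores of at least 100 and 48.0% with whole lists. Without 1 Sox library each, they ran from 19.1 to 43.0% and from 15.5 to 31.6%. The F9+RA Sox17 share was 2.10% at 100 bp and 6.22% with the pooled strongest, and 3.45 to 5.81% without 1 Sox library each. The cause of these moves was not tested. Depth is unknown, so an absent peak may be one below the limit of calling.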

Other observations

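The members were spread over all chromosomes in the lists. Chromosome 1 held the most, 66 members (9.75%) against 607 of the other Sox17EK sites (9.98%). Chromosome 2 held 30 (4.43%, exact 95% interval 3.01 to 6.27) against 444 (7.30%), chromosome 9 held 43 (6.35%) against 282 (4.64%), and chromosome 17 held 42 (6.20%) against 280 (4.60%). These are descriptions without a test.

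Few members had another member nearby. Another member lay within 10 kb of 16 members (2.36%), and a member lay within 10 kb of 163 other Sox17EK sites (2.68%). Within 50 kb the counts were 63 members (9.31%) and 440 other Sox17EK sites (7.23%). Another site of both Sox17EK libraries lay within 10 kb of 132 members (19.5%), against 1334 of the other Sox17EK sites (21.9%), and within 50 kb of 44.5% of members, against 46.0%. A site bound in all 8 Sox libraries lay within 50 kb of 48 members (7.09%), against 470 of the other sites (7.73%).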
